A study of Homo sapiens with 4 samples.

Results

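The genes described here are 9 genes of antigen presentation by major histocompatibility complex (MHC) class I: HLA-B, HLA-C, HLA-E, B2M, TAP1, TAP2, PSMB8, PSMB9 and NLRC5. They are 9 of 18393 protein-coding genes for which a transcription start site (TSS) could be placed. Their peaks are those that name one of them as the nearest gene, together with those centred within 20 kb of one of their TSS: 12 of 44760 peaks in shARID1A rapamycin, 12 of 45700 in shARID1A DMSO, 10 of 49783 in shControl rapamycin and 13 of 52192 in shControl DMSO. ATAC-seq, which uses a transposase that cuts accessible DNA, had been run on Huh7, a line from a human hepatocellular carcinoma. These cells carried a short hairpin RNA against ARID1A (shARID1A), a DNA-binding subunit of the SWI/SNF chromatin remodeller, or a control hairpin (shControl). Each kind of cell received rapamycin, which inhibits mTORC1, at 100 nM for 6 h, or DMSO. Each of the 4 groups was 1 library from 50000 cells, so the spread between cultures is unknown and no test was made; every value describes these libraries.

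Class I molecules show peptides from inside the cell to cytotoxic T cells and natural killer cells. The proteasome cuts the peptides, a transporter carries them into the endoplasmic reticulum, and there they bind a class I heavy chain paired with B2M. The genes respond to interferon gamma in most cell types, hepatocytes included, and NLRC5 is a transactivator of class I promoters. The heavy chain genes are among the most variable human genes, and they resemble each other closely in sequence.

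The list lengths above differed, the read depth behind them was unknown, and the peak numbers skipped 6666 values (12.7%) in shARID1A DMSO and 1093 (2.15%) in shControl rapamycin, but 0 in the other lists. None of the skipped numbers fell in an interval where a peak near one of the 9 genes was absent. The label Huh7 was checked against hepatocyte genes: 7, 6, 6 and 5 of 10 had a promoter peak in shARID1A rapamycin, shARID1A DMSO, shControl rapamycin and shControl DMSO. Of all genes with a TSS, 67.1%, 68%, 67.4% and 66.9% had one in the same lists. The hepatocyte counts were near or below these shares, so they do not support the label. Among 10 leukocyte genes the numbers were 2, 2, 2 and 3, and PTPRC, which defines leukocytes, had none in any list; no TSS was placed for MS4A1. ALB and AFP, the best known products of liver cells, had none either, nor had FOXA2, another of the hepatocyte genes. A hairpin acts on the transcript, so the peak lists do not check the knockdown.

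RefSeq promoter sequences (GRCh38.p14) are shown for 7 of the 9 genes, since the values below turn on their promoter peaks and interferon is known to act on these genes through short promoter elements; the other 2, HLA-E and NLRC5, are named only. Each runs from 250 bases before to 50 after the TSS, and lies at chr6:32853655-32853954 on the minus strand for TAP1, chr6:32853942-32854241 on the plus strand for PSMB9, chr6:32843998-32844297 on the minus strand for PSMB8, chr6:32838690-32838989 on the minus strand for TAP2, chr15:44711267-44711566 on the plus strand for B2M, chr6:31357130-31357429 on the minus strand for HLA-B and chr6:31272043-31272342 on the minus strand for HLA-C. Capitals mark matches on either strand to GAAA and GAAA with 2 bases of any kind between them (the interferon response element, ISRE), TTCNNNGAA (the STAT element, GAS), GGG and TTCCC with 2 bases of any kind between them (NF-kB) or TGANTCA (AP-1).
TAP1: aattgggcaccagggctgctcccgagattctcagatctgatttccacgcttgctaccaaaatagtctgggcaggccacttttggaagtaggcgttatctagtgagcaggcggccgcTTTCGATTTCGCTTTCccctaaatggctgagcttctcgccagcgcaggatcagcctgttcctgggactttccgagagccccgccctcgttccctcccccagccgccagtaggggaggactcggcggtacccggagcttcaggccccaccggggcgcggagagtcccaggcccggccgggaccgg
PSMB9: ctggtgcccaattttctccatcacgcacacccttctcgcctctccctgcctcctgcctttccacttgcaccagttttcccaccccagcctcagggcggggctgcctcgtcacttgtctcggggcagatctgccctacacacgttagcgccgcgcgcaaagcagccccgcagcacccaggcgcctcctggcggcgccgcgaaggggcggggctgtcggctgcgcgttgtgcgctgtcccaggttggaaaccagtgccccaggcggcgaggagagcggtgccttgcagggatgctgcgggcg
PSMB8: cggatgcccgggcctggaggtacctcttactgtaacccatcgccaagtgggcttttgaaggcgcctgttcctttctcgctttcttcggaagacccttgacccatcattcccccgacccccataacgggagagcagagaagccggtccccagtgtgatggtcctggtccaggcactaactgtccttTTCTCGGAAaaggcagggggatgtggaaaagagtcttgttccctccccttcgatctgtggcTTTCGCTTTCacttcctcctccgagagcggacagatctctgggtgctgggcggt
TAP2: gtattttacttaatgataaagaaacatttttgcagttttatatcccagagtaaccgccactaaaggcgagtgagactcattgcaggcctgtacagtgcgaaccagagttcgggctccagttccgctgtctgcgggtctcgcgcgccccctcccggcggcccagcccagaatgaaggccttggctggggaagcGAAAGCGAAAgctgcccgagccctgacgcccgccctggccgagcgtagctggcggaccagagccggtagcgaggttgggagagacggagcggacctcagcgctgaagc
B2M: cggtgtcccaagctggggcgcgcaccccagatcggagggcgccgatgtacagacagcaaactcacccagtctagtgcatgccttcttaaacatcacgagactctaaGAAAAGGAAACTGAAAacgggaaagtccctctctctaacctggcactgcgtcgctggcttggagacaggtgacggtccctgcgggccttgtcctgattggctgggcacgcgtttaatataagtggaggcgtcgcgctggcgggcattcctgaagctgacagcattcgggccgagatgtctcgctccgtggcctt
HLA-B: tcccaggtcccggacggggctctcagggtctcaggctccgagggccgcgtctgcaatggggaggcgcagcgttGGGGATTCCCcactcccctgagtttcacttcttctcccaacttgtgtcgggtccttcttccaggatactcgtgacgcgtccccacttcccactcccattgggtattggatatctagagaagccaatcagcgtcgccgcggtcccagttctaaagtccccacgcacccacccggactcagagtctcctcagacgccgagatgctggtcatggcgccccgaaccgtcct
HLA-C: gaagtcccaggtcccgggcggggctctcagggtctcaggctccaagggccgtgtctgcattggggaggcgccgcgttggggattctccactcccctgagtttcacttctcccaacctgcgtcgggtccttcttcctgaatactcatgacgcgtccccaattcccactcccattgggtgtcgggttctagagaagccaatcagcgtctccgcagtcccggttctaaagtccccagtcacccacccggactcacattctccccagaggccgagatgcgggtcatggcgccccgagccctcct

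The ISRE letters were found in the promoters of TAP1, PSMB8, TAP2 and B2M, against 3.57% of 34796 distinct promoter sequences. A gene was counted if any of its annotated starts held a match, and TAP1 and PSMB8 have 2 starts each. The shares of all promoters count single sequences instead. In TAP1 and in B2M there are 2 overlapping matches, and in PSMB8 the match spans the TSS of the inner of its 2 annotated starts. The GAS letters were present in PSMB8 and at the inner start of TAP1, which is not printed (7.67% of all promoters). HLA-B alone held the NF-kB letters (2.17% of all promoters), at position -177 relative to its TSS, in the stretch of class I promoters known as enhancer A. For every element only exact matches to the letters were counted, so a promoter without a match may still hold a variant of it. The CRE core TGACG was found in B2M, HLA-B, HLA-C, PSMB9, TAP2 and, at its outer start, which is not printed, PSMB8 (24.5% of all promoters). CCAAT occurred in B2M, HLA-B, HLA-C, PSMB9 and TAP1 (34.6%), and the AP-1 letters in none of the 7 genes (7.73%). The CCAAT matches of PSMB9 and TAP1 are the same bases, since their printed stretches overlap by 13 bp. The HLA-B and HLA-C promoters were identical at 269 of 296 aligned bases (90.9%). How the authors treated reads that map to several places is not stated in the labels or files. Peaks at these 2 genes are therefore less certain. The HLA-E promoter had no sequence to compare, so the same doubt may hold for that heavy chain gene.

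Promoters of the pathway were open in nearly every list. A peak centred within 1 kb of the TSS was present at 9 of 9 genes in shARID1A rapamycin, 8 in shARID1A DMSO, 8 in shControl rapamycin and 9 in shControl DMSO, and 8 of the 9 had one in all 4 lists. Of all genes with a TSS, 67.1%, 68%, 67.4% and 66.9% had one in the same lists and 63.6% in all 4; where RefSeq gave no start, a gene entered only if a peak named it, which raises these shares. Of 13117 genes with a promoter peak in any list, 89.2% had one in all. TAP1 and PSMB9 share 1 peak, since they are transcribed away from each other from starts 488 bp apart, so the 9 genes rest on at most 8 peaks. The gene that varied was HLA-B, which encodes one of the classical heavy chains. Its promoter peak was present in shARID1A rapamycin (chromosome 6, 31356544 to 31357265) and shControl DMSO (31356540 to 31357624) and absent from shARID1A DMSO and shControl rapamycin.

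The HLA-B peak was weak where it was present, with a deposited score of 4.76 and rank 34692 of 44760 in shARID1A rapamycin, and a score of 4.25 and rank 43757 of 52192 in shControl DMSO. The peak in shControl DMSO covered all 300 bases of the printed promoter, and that in shARID1A rapamycin 136 of them, which do not reach the NF-kB letters. HLA-B therefore counted as lost with knockdown in DMSO, where 2.57% of genes lost a promoter peak and 4.18% gained one, and as gained with knockdown under rapamycin, where 2.84% gained and 3.3% lost one. With rapamycin it was gained in shARID1A (2.17% of genes gained and 3.5% lost one) and lost in shControl (2.81% lost and 3.56% gained one). A promoter peak in these 2 lists alone was seen for 0.305% of genes with one in any list. A promoter peak in both shARID1A lists and neither shControl list, seen for 0.663%, was found at none of the 9 genes. Presence at this strength varied widely between lists. Of 284 genes whose shControl DMSO promoter peak ranked within 5% of the list of that of HLA-B, 31.7% lacked one in shARID1A DMSO and 31% in shControl rapamycin. Of 239 such genes in shARID1A rapamycin, 20.5% lacked one in shARID1A DMSO and 26.8% in shControl rapamycin.

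**Figure D1:**
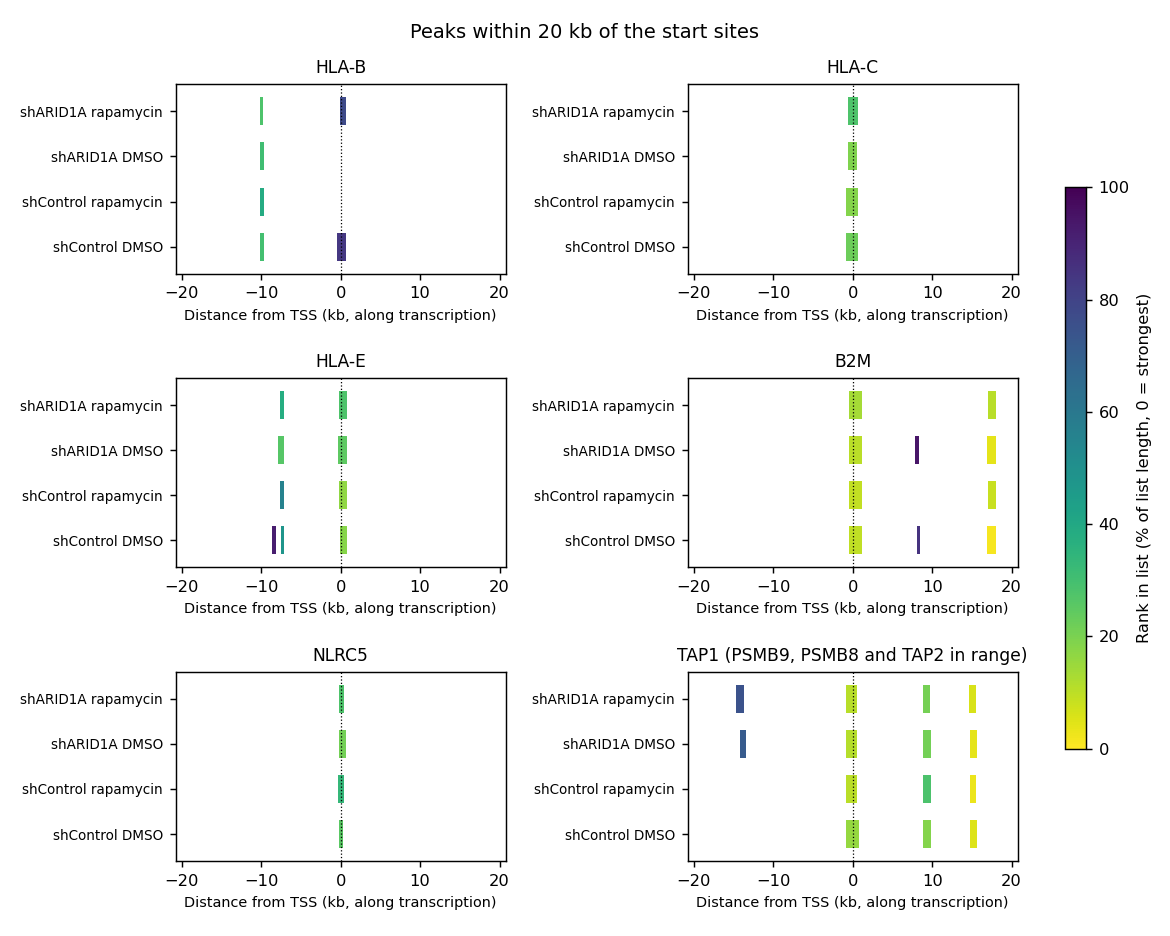
Peaks within 20 kb of the TSS of HLA-B, HLA-C, HLA-E, B2M, NLRC5 and TAP1, with 1 row per library; the x axis is the distance from the TSS in kb along the direction of transcription, and the colour of a bar is the rank of the peak in its list in percent of list length. HLA-B has a start-site peak in shARID1A rapamycin and shControl DMSO, HLA-E a second region upstream and the TAP1 panel a region upstream in both shARID1A lists alone; the PSMB8 and TAP2 promoter peaks lie downstream in the TAP1 panel.

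To compare strength between lists of unequal length, the 11706 genes with a promoter peak in all 4 lists were ranked by the deposited score of their promoter peak, and the percentile of a gene is the share of these genes with a lower score. A difference of 10 points or more was called. Such differences were common: they were found for 25.1% of genes between shARID1A and shControl in DMSO, 28.3% between them under rapamycin, 22.8% between rapamycin and DMSO in shARID1A and 28.4% in shControl. Among the 8 genes ranked, 3 and 5 differed that much with knockdown in DMSO and under rapamycin, and 1 and 4 with rapamycin in shARID1A and shControl, TAP1 and PSMB9 counting apart. Ranked among all peaks in percent of list length, only HLA-E under rapamycin kept a difference of 10 points or more. On that scale 10 points is a stricter cut: the TAP1 difference of 14.0 points with knockdown in DMSO was 4.69 there. The share of all genes past 10 points on it was not counted. Over the 4 lists the median gene spanned 12.3 points. The 8 genes ranked spanned 11.6 (B2M) to 19.6 points (HLA-E), and 18.1% of all genes had a span as wide as that of HLA-E.

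TAP2, a subunit of the peptide transporter, had the highest promoter percentile of the 8 ranked genes in every list. It stood at percentile 76.3 in shARID1A rapamycin, 83.6 in shARID1A DMSO, 88.0 in shControl rapamycin and 76.4 in shControl DMSO. Its peak lay across the TSS (chromosome 6, 32838159 to 32839087 in shARID1A rapamycin). TAP2 was lower in shARID1A than in shControl under rapamycin (a difference of -11.7 points), where 14.1% of genes were lower by 10 points or more, and higher by 7.30 points in DMSO. The shared peak of TAP1, the other subunit, and PSMB9, an immunoproteasome subunit, stood at 60.7, 58.9, 60.8 and 44.9 in the same order (32853126 to 32854606 in shARID1A rapamycin). The shControl DMSO library was the low one. TAP1 and PSMB9 were therefore higher by 14.0 points with knockdown in DMSO (12.5% of genes were higher by 10 points or more) and by 15.9 points with rapamycin in shControl (14.2%), and these comparisons share the shControl DMSO library. Under rapamycin the knockdown difference was -0.15 points, and with rapamycin in shARID1A it was 1.80 points. The peak also differed in extent: in shControl DMSO it ran from 32852864 and covered 148 of the 300 promoter bases of the inner TAP1 start, all upstream of that start, while in the other lists it began at 32853123 or 32853126 and covered 0 of them.

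PSMB8, which replaces the standard catalytic subunit PSMB5 in the immunoproteasome, had a promoter at percentile 34.02 in shARID1A rapamycin, 32.6 in shARID1A DMSO, 23.2 in shControl rapamycin and 38.4 in shControl DMSO. The low library was shControl rapamycin. PSMB8 was lower with rapamycin in shControl (a difference of -15.2 points), where 14.2% of genes were lower by 10 points or more, and 10.8 points higher in shARID1A than in shControl under rapamycin. The neighbouring peaks of TAP2, and of TAP1 with PSMB9, were higher by 11.6 and 15.9 points with rapamycin in shControl. The 3 promoter peaks are neighbours, and that of PSMB8, the middle one, differed in the opposite direction to both. The PSMB8 peak spans both of its starts and held all 300 bases of the printed promoter in every list. The nearest gene that the authors' tables give for it was PSMB9 in 3 lists and PSMB8-AS1 in shControl DMSO.

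B2M, the invariant light chain of class I molecules, had a wide promoter peak of 1647 to 1706 bp in every list (chromosome 15, 44711028 to 44712725 in shARID1A rapamycin). Its percentile was 52.4 in shARID1A rapamycin, 61.2 in shARID1A DMSO, 64.0 in shControl rapamycin and 62.2 in shControl DMSO. B2M was lower with knockdown under rapamycin (a difference of -11.6 points), and the difference in DMSO was -0.999 points. HLA-C, the other classical heavy chain gene examined, stood at 23.4, 36.5, 38.6 and 31.6 in the same order. It was lower with knockdown under rapamycin (-15.2 points) and higher in DMSO (4.92 points), and lower with rapamycin in shARID1A (-13.1 points), where 11.3% of genes were lower by 10 points or more. Its peak was 1600 bp wide in both shControl lists, against 1196 bp in shARID1A rapamycin and 1108 bp in shARID1A DMSO. For both genes shARID1A rapamycin was the low library.

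A promoter peak of NLRC5 was listed in every library, at percentile 23.5 in shARID1A rapamycin, 31.9 in shARID1A DMSO, 18.2 in shControl rapamycin and 27.6 in shControl DMSO (chromosome 16, 56989349 to 56989925 in shARID1A rapamycin). It was higher in shARID1A by 4.29 points in DMSO and 5.27 points under rapamycin, and lower with rapamycin in shARID1A (-8.39 points) and shControl (-9.37 points). On this scale no difference reached 10 points. Among 31585 regions with a peak in all 4 lists, it was higher with knockdown by 10.6 points in DMSO and 13.0 under rapamycin. Of these regions 8.2% were higher by 10 points or more in both. The differences with rapamycin on that scale were -8.22 points in shARID1A and -10.6 points in shControl. The nearest-gene column gives another picture, which the positions do not bear out. It names NLRC5 in both shARID1A lists, but in the shControl lists it names AC023825.1 for the overlapping peak, at distances of 24563 bp in rapamycin and 24513 bp in DMSO, although the annotation column of the same rows places that peak at the NLRC5 promoter. Counted from that column, NLRC5 would appear open with knockdown alone.

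**Figure D2:**
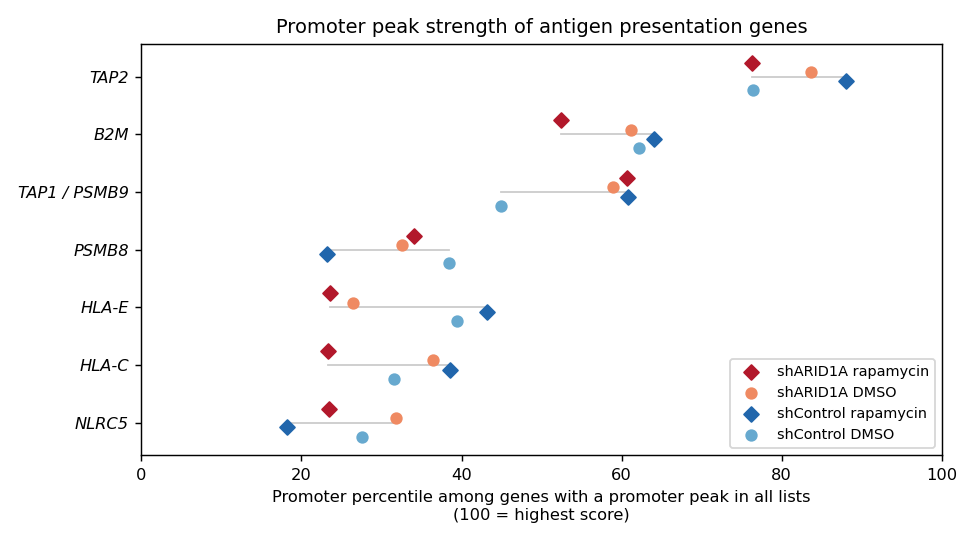
Percentile of the promoter peak score of each gene among 11706 genes with a promoter peak in all lists; each symbol is 1 library, the grey line joins the lowest and the highest, and HLA-B is left out because 2 lists lack its peak. TAP2 is highest throughout, from 76.3 to 88.0, and HLA-E is lower in both shARID1A libraries (23.5 and 26.4) than in both shControl libraries (43.2 and 39.5).

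HLA-E encodes a non-classical class I molecule that presents signal peptides of other class I chains to natural killer cell receptors. Its promoter peak (chromosome 6, 30489282 to 30490256 in shARID1A rapamycin) stood at percentile 23.5 in shARID1A rapamycin and 26.4 in shARID1A DMSO, against 43.2 in shControl rapamycin and 39.5 in shControl DMSO. Both shARID1A values lay below both shControl values, and the share of all genes with such an order was not counted. HLA-E was lower with knockdown in DMSO (a difference of -13.1 points), where 12.6% of genes were lower by 10 points or more, and under rapamycin (-19.6 points), where 14.1% were. These 2 comparisons share no library; 2.55% of genes were lower and 2.65% higher by 10 points or more in both. On this scale HLA-E was the only one of the 8 ranked genes with a called knockdown difference in both treatments. Ranked among 31585 regions with a peak in all 4 lists, NLRC5 had one in both, and HLA-E under rapamycin only. On that scale PSMB8 kept its knockdown difference under rapamycin (15.1 points). Those of TAP1 with PSMB9 in DMSO (9.96 points) and of HLA-C (-9.99), B2M (-4.45) and TAP2 (-4.13) under rapamycin fell below 10. With rapamycin, HLA-C in shARID1A (-11.5) and PSMB8 in shControl (-13.8) kept theirs. TAP1 with PSMB9 (9.82) and TAP2 (4.52) in shControl did not. Ranked among all peaks in percent of list length, the HLA-E differences were -6.51 points in DMSO, below the 10 called, and -11.2 points under rapamycin. No share of all genes was counted on that scale.

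A region upstream of HLA-E (centres at -7322 to -7514 bp from its TSS), for which the authors name the pseudogene RANP1 as nearest, differed in the opposite direction. It held a peak in every list: 30481832 to 30482298 in shARID1A rapamycin, 30481608 to 30482298 in shARID1A DMSO, 30481799 to 30482285 in shControl rapamycin and 30481994 to 30482296 in shControl DMSO. Its deposited scores were 15.3, 31.4, 9.56 and 11.7. Among 31585 regions with a peak in all 4 lists it stood at percentile 47.2 in shARID1A rapamycin and 61.9 in shARID1A DMSO, against 20.7 in shControl rapamycin and 27.0 in shControl DMSO. It was therefore higher with knockdown by 34.9 points in DMSO and by 26.5 points under rapamycin. Of all these regions 21% were higher by 10 points or more in DMSO, 20.4% under rapamycin and 8.2% in both, and 0.5% were higher in both by at least the smaller of the differences seen here. On the same scale the HLA-E promoter differed by -5.64 points in DMSO and -13.1 points under rapamycin. This region was singled out after its values were seen. A weak peak beside it (30480768 to 30481263, rank 48051 of 52192) was listed in shControl DMSO alone, as were 10.2% of all 69838 regions.

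**Figure D3:**
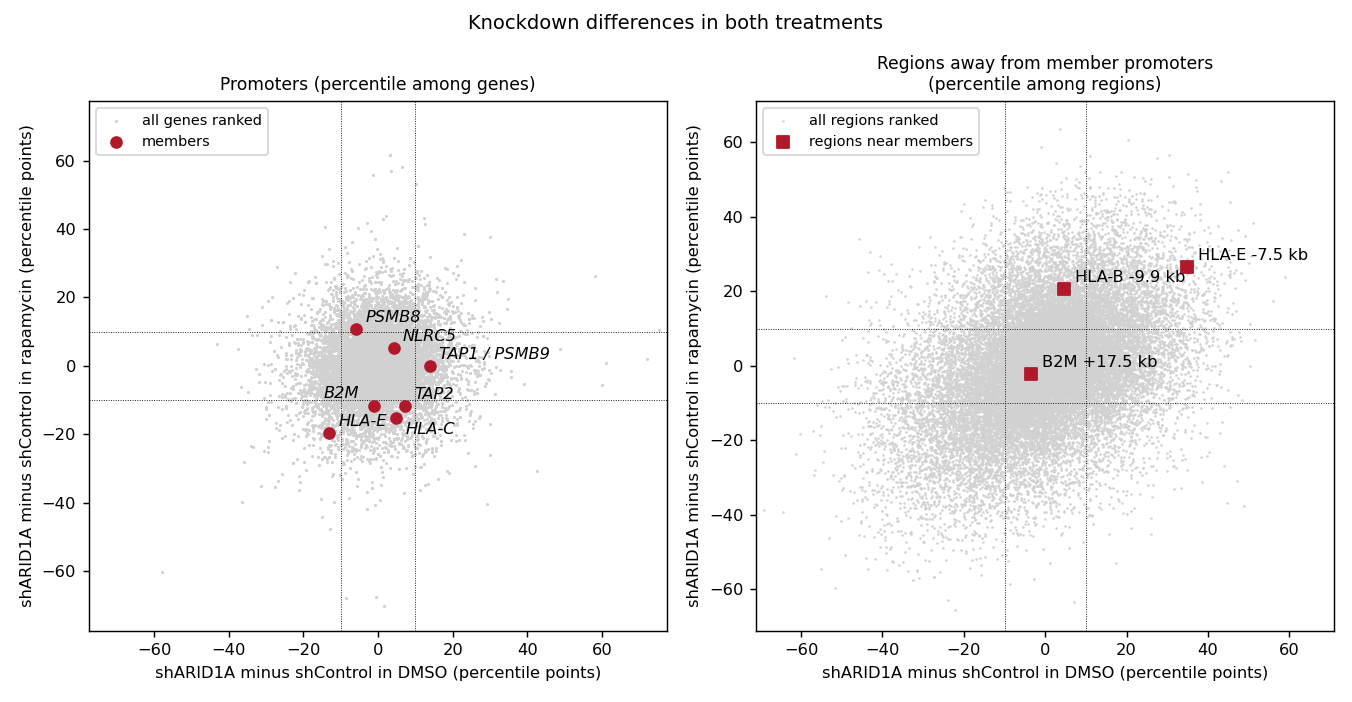
Difference in percentile between shARID1A and shControl in DMSO (x axis) and under rapamycin (y axis), in points, for promoters ranked among 11706 genes (left) and for regions away from the promoters of the 9 genes, ranked among 31585 regions (right); grey points are all genes or regions and dotted lines mark 10 points. HLA-E lies at -13.1 and -19.6 on the left, and the region upstream of it at 34.9 and 26.5 on the right.

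Few other peaks lay near the 9 genes. Away from the promoters of the 9 genes, 4 peaks were listed in shARID1A rapamycin, 5 in shARID1A DMSO, 3 in shControl rapamycin and 5 in shControl DMSO, and HLA-C and NLRC5 had none within 20 kb in any list. A region downstream of the PSMB9 start (centres at 13712 and 13332 bp in shARID1A rapamycin and shARID1A DMSO) had a peak in shARID1A rapamycin (chromosome 6, 32867403 to 32868404) and an overlapping one in shARID1A DMSO (32867182 to 32867865), and none in shControl. It was the one region near these genes with this pattern, which 1.81% of all regions showed. Its peaks were weak, ranking 33481 of 44760 and 32788 of 45700. A peak at the end of B2M, with centres 8116 and 8275 bp from its TSS, was listed in shARID1A DMSO (44719350 to 44719916) and shControl DMSO (44719562 to 44720022) and in neither rapamycin list, a pattern of 1.98% of regions. It ranked 43185 of 45700 and 44607 of 52192.

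The other 2 regions were promoters of genes outside the pathway. The promoter of TRIM69, a tripartite motif gene with peak centres 17480 to 17511 bp from the B2M start, stood at region percentile 84.6 in shARID1A rapamycin, 94.1 in shARID1A DMSO, 86.8 in shControl rapamycin and 97.5 in shControl DMSO. It was lower with rapamycin in shARID1A (-9.42 points) and in shControl (-10.6 points), where 17.5% of regions were lower by 10 points or more. A peak upstream of HLA-B (centres at -9902 to -9990 bp), named AL671883.3 by the authors, stood at 60.9, 56.0, 40.4 and 51.2 in the same order. It was 20.5 points higher with knockdown under rapamycin and 4.72 points higher in DMSO. Of all peaks of the 9 genes, knockdown gained 1 of 12 and lost 2 of 13 in DMSO (17.7% and 27.6% of all peaks) and gained 2 of 12 and lost 0 of 10 under rapamycin (17.9% and 26.7%). Rapamycin gained 1 of 12 and lost 1 of 12 in shARID1A (19.3% and 21.2%), and gained 0 of 10 and lost 3 of 13 in shControl (18.5% and 21.7%). These counts are too small to read against those shares.

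Of 52 related genes in 6 lists, 42 had a promoter peak in shARID1A rapamycin, 43 in shARID1A DMSO, 42 in shControl rapamycin and 42 in shControl DMSO, against 67.1%, 68%, 67.4% and 66.9% of all genes with a TSS. All 12 interferon signalling genes, from receptors to STAT and IRF factors, had one in every list, as did all 9 regulators of class I promoters, all 6 proteasome genes and all 6 stress and checkpoint ligand genes; 63.6% of all genes did. Of 10 further genes of class I loading, 8 had one in every list and the heavy chain genes HLA-F and HLA-G in none. Class II genes, used by professional antigen presenting cells, were mostly without promoter peaks. CD74, HLA-DRA, HLA-DRB1, HLA-DPA1, HLA-DPB1 and HLA-DOB had none in any list, and no TSS was placed for the class II transactivator CIITA. HLA-DMB had one in all 4 lists, and HLA-DMA in shARID1A DMSO alone.

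Among the related genes with the largest differences were PSMB5, CALR, CD274 and TAPBPL. PSMB5 stood at percentile 76.6 in shARID1A rapamycin, 84.0 in shARID1A DMSO, 61.4 in shControl rapamycin and 87.0 in shControl DMSO, and was lower with rapamycin in shControl (-25.6 points). CALR, a chaperone of class I assembly, was at 45.9, 52.5, 44.6 and 70.0, and CD274, the checkpoint ligand PD-L1, at 16.5, 22.9, 12.5 and 32.8. Both were highest in shControl DMSO, with differences of -25.4 points (CALR) and -20.3 points (CD274) with rapamycin in shControl. TAPBPL, a peptide editor, stood at 15.4, 30.1, 35.5 and 28.5. It was lowest in shARID1A rapamycin, with a difference of -20.0 points from shControl rapamycin. HLA-E, HLA-C, TAP2 and B2M were likewise lower by 10 points or more in this comparison, while PSMB8 and PSMB5 were higher. Ranked among the 31585 regions instead, HLA-C, TAP2 and B2M were lower by less than 10 points. Interferon signalling genes went both ways. IRF1 was higher by 17.6 points, JAK1 by 16.4, IRF2 by 13.7 and IFNAR1 by 13.2, and SOCS1 (-12.6 points) and IRF9 (-11.1 points) were among those lower. Of all genes, 14.1% were lower and 14.2% higher by 10 points or more. In none of the 8 ranked genes did knockdown differ by 10 points or more in opposite directions in DMSO and under rapamycin, as it did for 3.81% of all genes, nor rapamycin in shARID1A and shControl, as it did for 3.76%.

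**Figure D4:**
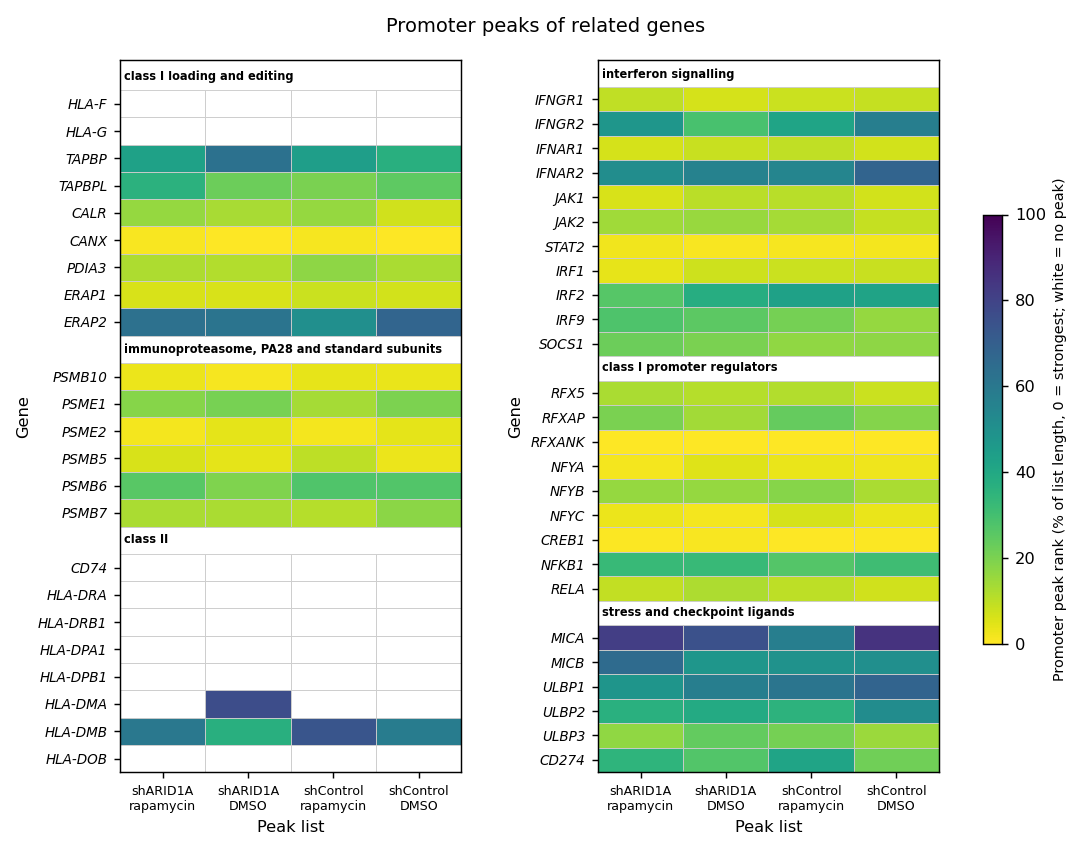
Rank of the promoter peak of the related genes reported here in each list, in percent of list length (0 is the strongest, white means no promoter peak), grouped by role. Class II genes other than HLA-DMB and HLA-DMA, and HLA-F and HLA-G, are white in all 4 lists, and the interferon signalling and regulator genes shown are filled in all.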

How the data were processed

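ATAC-seq peak lists of 4 Huh7 libraries, 1 per group, were read as deposited; the submitters' processing notes name BWA, MACS2 2.0 and GRCh38 (hg38), and coordinates are given as deposited. Each peak carries the authors' deposited score, whose scale is not given, and the authors' annotation, nearest gene and distance. The score was used only to rank peaks within a list. No read counts were used, so the depth is unknown.

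A promoter peak was centred within 1 kb of a TSS, taken from RefSeq promoters for 15842 genes and from the authors' distances for 2551. Other peaks of the 9 genes were centred within 20 kb of a TSS or named one as nearest, and each was counted once. Regions were merged overlapping peaks, 69838 in all. Percentiles were taken among 11706 genes or 31585 regions found in all lists, and 10 points or more was called. Scripts used Python 3.11.15, pandas 2.3.3, NumPy 2.4.6, SciPy 1.17.1, matplotlib 3.10.9 and Biopython 1.88, and were tested on simulated data. The genes, lists and rules were chosen with earlier results of these data known. All 9 genes are named, with the related genes of largest difference, of which 1 of 5 is not reported here. Alternatives varied the promoter and distal windows, the list strength, the overlap and the ranking.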

Additional observations from a re-analysis of the deposited data

Results flagged for a closer look

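The HLA-B promoter peak was singled out because both contrasts ran in opposite directions: it was present in shARID1A rapamycin and shControl DMSO, and absent in shARID1A DMSO and shControl rapamycin, so 2 lists held it. This pattern was shown by 0.305% of genes with a promoter peak in any list. The difference was not tested.

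JAK1, a kinase of interferon receptors, differed with knockdown by -11.6 points in DMSO and 16.4 points under rapamycin, and with rapamycin by 15.6 points in shARID1A and -12.4 points in shControl. ULBP3, a ligand of the receptor NKG2D, differed with rapamycin by 16.5 points in shARID1A and -12.2 points in shControl. Opposite differences of 10 points or more were shown by 3.81% of genes for knockdown and 3.76% for rapamycin. With 1 library per group neither difference was tested.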

How the results depend on the processing

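No paired analysis was possible because each group held 1 library and no test was made. Of the counts over the 9 genes recomputed under the alternatives, 53 stayed within 1.5 times and 27 moved further, and all 8 over the related genes stayed. Of the percentile differences of single genes, 67 moved by no more than the half-width of the 95% binomial interval of the percentile and 29 by more, and 0 called differences reversed. That half-width is only a yardstick and measures no spread between libraries. Apart from TAP2 and NLRC5 with promoters within 500 bp, those 29 came from ranking in percent of list length, which changes the scale itself. Requiring the authors' promoter annotation with the gene itself as nearest left 3 gene names in each list, of which HLA-C and TAP1 were in every list, and the third was HLA-B in shControl DMSO and PSMB9, named for the PSMB8 promoter peak, in the others. Peaks away from the promoters of the 9 genes are given for shARID1A rapamycin, shARID1A DMSO, shControl rapamycin and shControl DMSO in that order. They numbered 2, 3, 2 and 4 with a 10 kb window and 17, 18, 15 and 17 with 50 kb. By the nearest-gene column alone they numbered 0, 1, 0 and 1. Among the stronger 50% of peaks they numbered 3, 3, 2 and 3. Ranking all peaks in percent of list length left 0 genes past 10 points with knockdown in DMSO, 1 under rapamycin (HLA-E), and 0 with rapamycin in shARID1A and 0 in shControl. Differences are smaller on that scale, and the share of all genes past 10 points on it was not counted. Among the stronger 50% of peaks, set against the whole other list, 0 were gained and 0 lost with knockdown in DMSO, 0 gained with knockdown under rapamycin, 0 gained and 0 lost with rapamycin in shARID1A, and 0 lost with rapamycin in shControl. These counts restate ranks, since every peak near the 9 genes that lacked an overlap lay in the weaker 50% of its list. With lists of equal number, 1 peak was lost with knockdown in DMSO. The shares over all peaks under these settings were not counted. The cause was not tested. The unknown read depth limits what absence of a weak peak shows.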

Other observations

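The gene that the authors' tables name for the strongest promoter peak of a gene often differed between lists. Of 11706 genes with a promoter peak in all 4 lists, 2830 (24.2%) had a promoter peak given to a different nearest gene in at least 1 list, and 2642 (22.6%) were named in some lists and not in others. For 138 genes (1.18%), NLRC5 among them, the name appeared in both shARID1A lists and in neither shControl list although all 4 lists held a peak there.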
